A study of Mus musculus with 64 samples.

Results

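Chromatin occupancy of LEF1 was compared between naive mouse embryonic stem cells (naive ESC) and caudal epiblast-like cells (CEpiLC). The comparison used the 6 LEF1 immunoprecipitation libraries of the wild-type (WT) line, 3 per condition, out of 64 samples in the series, of which 60 were immunoprecipitations and 4 were inputs. The WT line was the XY HM1 TetON line, 1 male line of the HM1 background with no change at Sox2. Naive ESC were cultured in 2i, a medium that holds an inhibitor of MEK (PD0325901) and an inhibitor of GSK3 (CHIR99021). Per the study's methods, they were plated in it from culture in serum. CEpiLC were made from the same cells with bFGF and with LGK974, which stops the cells from secreting their own WNT, and CHIR99021 was then added; the labels of both conditions read 72 h. CHIR99021 was therefore present in both conditions, so the comparison was between cell states under WNT pathway activation and not between WNT off and on. The activation was not matched. Per the study's methods, the concentration of CHIR99021 was higher for CEpiLC than in 2i, and CEpiLC had it only for the last part of the 72 h. Dose and time of CHIR99021 cannot be told apart from cell state here. All values describe the WT line in culture and the peaks recovered by 1 LEF1 antibody. The replicates came from separate experiments, per the study's methods.

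LEF1 belongs with TCF7, TCF7L1 and TCF7L2 to the TCF/LEF family, the DNA-binding proteins that bring β-catenin to genes when the WNT pathway is active. Without β-catenin they hold genes silent together with Groucho corepressors, and with it they activate them. The family binds a short sequence, CTTTGAA or CTTTGAT, whose first letters CTTTG it shares with the sequence CTTTGT bound by SOX proteins. In the caudal epiblast, WNT signalling maintains the progenitors of spinal cord and paraxial mesoderm and switches on T, the Cdx genes and the Hox genes. In naive ESC the same pathway supports self-renewal.

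The data were lists of peaks, the regions where a library had more reads than its background. The lists held 236304, 117834 and 812208 peaks in naive ESC replicates 1, 2 and 3, and 4443, 16518 and 20451 peaks in CEpiLC replicates 1, 2 and 3. Every naive list was longer than every CEpiLC list, with a difference in mean log10 length of -1.39 (exact permutation test, two-sided, p = 0.10, the smallest that 3 against 3 libraries allow). Among peaks with a −log10 q of at least 5 the groups overlapped, with 3397, 28701 and 188234 naive and 3349, 8079 and 10166 CEpiLC peaks, and the difference was -0.61 (exact permutation test, p = 0.30). The long lists were made of narrow peaks, since 76.8%, 61.7% and 75.5% of the naive peaks had the smallest width of their list. That width was 55 bp in naive replicate 1, below the read length of 76 bp, 163 bp in replicate 2 and 112 bp in replicate 3. Naive replicate 1 stood apart in the TCF/LEF sequences, the overlap with other libraries and the overlap with partner proteins, so each result is given by library. Read depth is unknown, so the values carry no interval for counting error. Because of the unequal lengths, each list was ranked by its −log10 p-value and cut to 4443 peaks, the length of the shortest. Joining overlapping peaks of the 6 shortened lists (1 bp or more in common) gave 18261 sites.

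The sequences under the most highly ranked sites show what LEF1 peaks looked like in each state. Each window is 121 bp of the mm10 plus strand, centred on the summit of the best-ranked peak and named by the gene with the nearest start, with every CTTTGAA or CTTTGAT, on either strand, in capitals. The letters are those of the reference genome, not of the line studied. The first set holds the 6 sites with a peak in 3 of 3 CEpiLC libraries, none in any full naive list, and the lowest mean rank over the CEpiLC libraries.
nearest to Pgr, chr9:8882941-8883061: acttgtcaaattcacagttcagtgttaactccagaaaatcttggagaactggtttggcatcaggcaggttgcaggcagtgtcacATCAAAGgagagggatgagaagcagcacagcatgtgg
nearest to Pcdh18, chr3:48405218-48405338: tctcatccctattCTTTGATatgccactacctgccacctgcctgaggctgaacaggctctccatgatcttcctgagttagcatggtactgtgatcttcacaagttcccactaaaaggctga
nearest to Rpl10-ps3, chr9:50191331-50191451: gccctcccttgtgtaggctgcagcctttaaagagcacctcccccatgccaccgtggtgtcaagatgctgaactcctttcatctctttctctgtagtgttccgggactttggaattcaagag
Ccser1 intron, chr6:61523846-61523966: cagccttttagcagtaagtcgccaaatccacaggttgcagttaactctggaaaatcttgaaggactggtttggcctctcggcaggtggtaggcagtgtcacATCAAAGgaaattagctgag
nearest to Slitrk2, chrX:66956215-66956335: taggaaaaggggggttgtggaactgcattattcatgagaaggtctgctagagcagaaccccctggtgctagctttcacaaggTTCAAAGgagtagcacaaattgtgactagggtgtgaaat
nearest to Ripply2, chr9:86980198-86980318: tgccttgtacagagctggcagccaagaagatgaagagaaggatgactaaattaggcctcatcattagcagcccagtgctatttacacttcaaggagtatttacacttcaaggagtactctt

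These 6 sites held mean ranks between 79.7 and 180 in the CEpiLC lists. The top site, 16832 bp from the start of Pgr, reached ranks of 119, 75 and 45 and folds over background of 24.9, 50.7 and 67.8. None of the 6 lay at a promoter, and 5 of them lay between genes, the farthest at 1352007 bp from the start of Pcdh18 and the others at 303268 bp from Slitrk2, 153577 bp from Rpl10-ps3 and 35279 bp from Ripply2. The sites nearest to Rpl10-ps3 and Ripply2, the latter a repressor that acts in somite formation, carried no exact TCF/LEF sequence within 100 bp of the summit. The Pgr and Ccser1 windows are visibly alike, and both hold the run agtgtcacATCAAAGga. This run of 17 letters occurred 123 times on the main chromosomes of mm10, and 123 of the 123 copies lay in letters that the reference marks as repeats.

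That run was taken from a site chosen for its CEpiLC peaks and for having no naive peak. Its counts in the same LEF1 lists therefore describe its copies and test no difference between the states. Full lists placed a peak within 150 bp of 37, 55 and 63 of the 123 copies in CEpiLC replicates 1, 2 and 3. The much longer naive lists did so at 8, 19 and 29 copies. In the shortened lists the run was found within 150 bp of the summit of 37, 44 and 53 CEpiLC peaks against 1, 4 and 0 naive peaks. These were 0.833%, 0.990% and 1.19% of the CEpiLC peaks. β-catenin sites, defined below, covered 60 of the copies in CEpiLC and 14 in naive ESC, and TCF7L1 sites covered 25 and 1. How reads with several genomic positions were placed was not tested here. The repeat run was searched for after the sequences had been seen.

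The next set holds 3 of the 4 top sites with a peak in naive replicates 2 and 3 and none in any full CEpiLC list, by mean rank over these naive libraries.
Filip1l intron, chr16:57473545-57473665: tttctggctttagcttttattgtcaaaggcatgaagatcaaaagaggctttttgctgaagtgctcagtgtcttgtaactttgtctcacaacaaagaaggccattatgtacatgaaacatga
Ubxn2a intron, chr12:4898119-4898239: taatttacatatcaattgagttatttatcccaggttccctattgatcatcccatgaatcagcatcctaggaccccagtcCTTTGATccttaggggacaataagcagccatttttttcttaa
Fancm intron, chr12:65115085-65115205: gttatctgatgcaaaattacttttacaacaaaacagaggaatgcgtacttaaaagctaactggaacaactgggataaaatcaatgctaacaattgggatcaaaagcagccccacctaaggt

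The Filip1l site, an intron that also belongs to Cmss1, held ranks of 4 and 26 in naive replicates 2 and 3 and a rank of 992 in replicate 1. Its 200-bp window carried no TCF/LEF sequence and 4 SOX sequences. The site in the Ubxn2a intron held ranks of 43 and 29, with 1 TCF/LEF and no SOX sequence. The site in the Fancm intron held ranks of 51 and 30, with 1 TCF/LEF sequence that lies outside the window printed. The other site of the 4 lay 2072 bp from the start of Cidea, with ranks of 32 and 25, 4 SOX sequences and no TCF/LEF sequence. Peaks of β-catenin, TCF7L1, TCF7L2 and SOX2 were present at these 4 sites in 3 of 3 naive libraries each. SOX2 peaks were also present in CEpiLC, in 2 of 3 libraries at the Filip1l site and 3 of 3 at the Ubxn2a site. A β-catenin peak was present in 1 CEpiLC library at the Cidea site. The other CEpiLC counts of these proteins at the 4 sites were 0. The last set holds the sites with a peak in 3 of 3 CEpiLC and at least 2 of 3 naive libraries, the 4 with the lowest mean rank over the CEpiLC libraries.
nearest to Foxb1, chr9:69668841-69668961: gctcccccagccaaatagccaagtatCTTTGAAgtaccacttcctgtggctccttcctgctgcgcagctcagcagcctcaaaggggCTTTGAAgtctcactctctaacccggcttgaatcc
Lrmda intron, chr14:22144114-22144234: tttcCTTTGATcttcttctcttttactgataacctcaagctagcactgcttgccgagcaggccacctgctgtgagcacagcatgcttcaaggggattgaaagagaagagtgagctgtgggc
nearest to Zfp703, chr8:26833494-26833614: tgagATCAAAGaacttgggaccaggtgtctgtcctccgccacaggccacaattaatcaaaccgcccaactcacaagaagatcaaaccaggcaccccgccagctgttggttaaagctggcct
nearest to Gbx2, chr1:89935985-89936105: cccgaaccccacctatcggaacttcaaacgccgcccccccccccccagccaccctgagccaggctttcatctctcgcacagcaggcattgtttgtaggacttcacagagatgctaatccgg

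The site 92039 bp from Foxb1 had ranks of 1, 1 and 2 and folds of 54.3, 131 and 114 in CEpiLC. It ranked 41 and 23 in naive replicates 2 and 3, and carried 2 TCF/LEF sequences. The Lrmda site ranked 2, 5 and 4 in CEpiLC and 9 and 21 in naive replicates 2 and 3. The site 4866 bp upstream of Gbx2, a homeobox gene of the caudal epiblast and hindbrain, ranked 6, 6 and 13 in CEpiLC and 620 and 158 in these naive libraries, without a TCF/LEF sequence in its 200-bp window. These sites were picked by their CEpiLC ranks, and their ranks in naive replicates 2 and 3 ran from 9 to 620.

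TCF/LEF sequences were the main feature of CEpiLC peaks. They occurred within 100 bp of the summit in 60.6%, 60.2% and 63.7% of the peaks of CEpiLC replicates 1, 2 and 3. The shares in naive replicates 1, 2 and 3 were 8.15%, 41.8% and 20.6%, and windows placed 5000 bp away held the sequences in 7.79% to 8.55% of cases. All CEpiLC libraries were above all naive libraries, with means of 61.5% ± 1.91 (SD, n = 3) and 23.5% ± 17.0 (SD, n = 3), and the groups differed by 38.0 percentage points (exact permutation test, two-sided, p = 0.10, adjusted p = 0.30 over 9 sequence families). Naive replicate 1 was at background. Without it the naive mean was 31.2% and the naive libraries remained below every CEpiLC library. Within 20 bp of the summit, the sequence was present in 22.0%, 24.2% and 27.8% of CEpiLC peaks and in 1.55%, 14.5% and 5.38% of naive peaks (exact permutation test, p = 0.10).

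**Figure D1:**
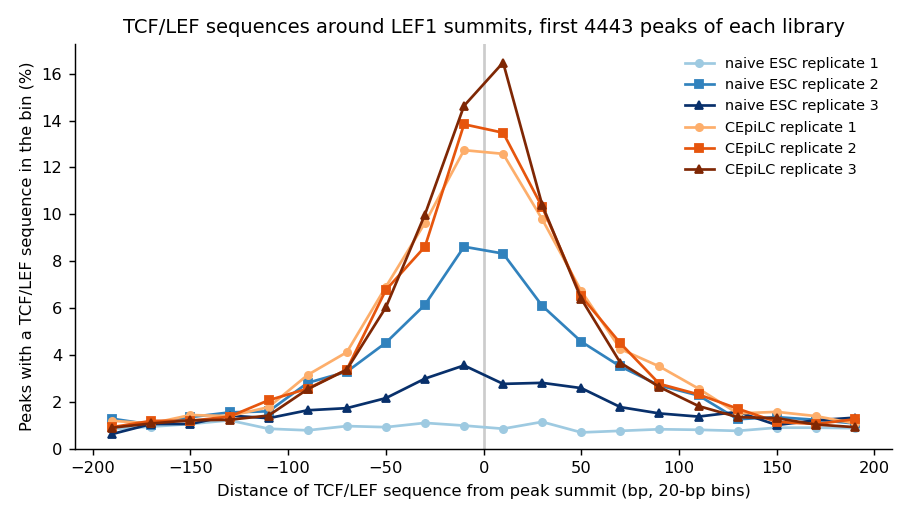
Share of the first 4443 LEF1 peaks of each library (vertical axis, percent) that hold a TCF/LEF sequence at a given distance from the summit (horizontal axis, base pairs, bins of 20 bp); 1 line per library. The 3 CEpiLC lines and, lower, naive replicates 2 and 3 peak at the summit, while naive replicate 1 stays flat near 1%.

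The letter that followed the sequence also differed between peaks and their surroundings. In CEpiLC, CTTTGATC was within 100 bp of 19.9%, 19.2% and 21.4% of summits, CTTTGAAG of 18.3%, 17.4% and 19.0%, and CTTTGATG of 14.7%, 15.1% and 15.8%. CTTTGAAT, by contrast, was found at 1.37%, 1.37% and 1.35%, close to its share 5000 bp away. Naive replicate 2 kept the same leading words at lower shares, with 12.0% for CTTTGATC, 11.3% for CTTTGAAG and 9.30% for CTTTGATG. The enrichment of CTTTGATC over windows 5000 bp away was 19.6, 23.6 and 21.6 times in CEpiLC, 18.4 times in naive replicate 2, 6.28 times in naive replicate 3 and 2.03 times in naive replicate 1.

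The share was lower in the last rank bin than in the first in every library, and fell most in naive replicate 3. Among the first 250 peaks, 62.0% in naive replicate 2 and 59.6% in naive replicate 3 held a TCF/LEF sequence, against 64.4%, 78.8% and 76.4% in CEpiLC. Among peaks ranked 2001 to 4443, the shares were 34.7% and 14.7% in these naive libraries and 56.5%, 53.5% and 60.3% in CEpiLC. Naive replicate 1 held 9.20% and 7.78% in the same bins. The strongest peaks of naive replicates 2 and 3 therefore carried the sequence nearly as often as those of CEpiLC replicate 1, but less often than those of CEpiLC replicates 2 and 3. The differences were wider in the last bin, though for naive replicate 2 against CEpiLC replicate 2 only slightly.

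**Figure D2:**
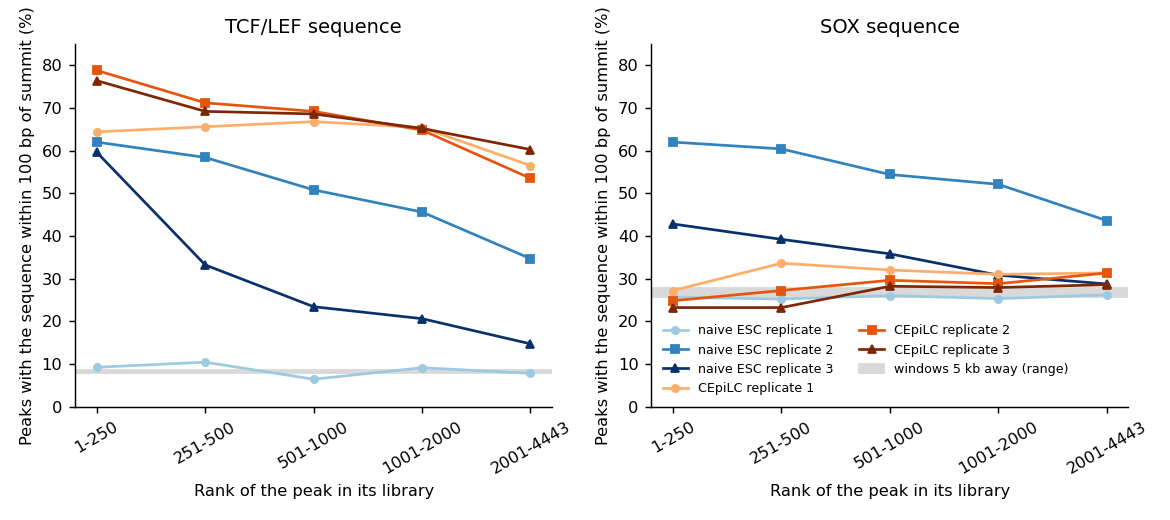
Share of LEF1 peaks (vertical axes, percent) with a TCF/LEF sequence (left) or a SOX sequence (right) within 100 bp of the summit, by rank bin (horizontal axis); 1 line per library, with the range over libraries of windows 5 kb away in grey. TCF/LEF shares fall with rank in naive replicates 2 and 3, whose SOX shares are highest in the first bins; CEpiLC SOX shares lie near the grey range.

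SOX sequences were most frequent in naive replicate 2. CTTTGT or CATTGT occurred in 48.7% of the peaks of naive replicate 2 and in 31.4% of naive replicate 3, with 25.8% to 27.8% in windows 5000 bp away. Naive replicate 1 was at 25.9%, and the CEpiLC libraries were at 31.2%, 30.0% and 27.8%. Over all 3 naive libraries the groups overlapped (difference -5.67 percentage points, exact permutation test, p = 0.70, adjusted p = 0.79), and the sign turned without naive replicate 2, to 1.02. In the first 250 peaks, the SOX share was 62.0% and 42.8% in naive replicates 2 and 3 and 27.2%, 24.8% and 23.2% in CEpiLC. AAGGTCA, the sequence of ESRRB, an orphan nuclear receptor of naive pluripotency, was in 8.71% and 5.13% of peaks of naive replicates 2 and 3, against 3.60%, 3.67% and 3.71% in CEpiLC and 3.56% in naive replicate 1 (exact permutation test, p = 0.40). The octamer bound by OCT4 was at 5.85%, 6.21% and 5.11% in CEpiLC and at 1.51%, 6.41% and 3.26% in naive ESC, above its background of 1.73% to 2.50% in 5 of the 6 libraries. The KLF sequence was more frequent in each CEpiLC library, at 11.7%, 12.7% and 11.5%, than in naive ESC, at 6.57%, 9.79% and 7.45% (exact permutation test, p = 0.10, adjusted p = 0.30), and was in 4.57% to 6.26% of windows 5000 bp away; with 1000 peaks per library the KLF groups overlapped (exact permutation test, p = 0.20). The T-box sequence was slightly less frequent in CEpiLC than in naive ESC, with a difference of -0.80 percentage points (p = 0.10 in the exact permutation test, adjusted p = 0.30), with 4.95% to 5.63% in windows 5000 bp away, and the groups overlapped with all deposited peaks (exact p = 0.70) and with peaks ranked by fold (exact p = 0.30). The sequences of CDX, AP-2 and CTCF differed by -0.24, 2.54 and 0.21 percentage points, with overlapping groups.

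CEpiLC peaks lay more often at promoters. Within 1000 bp of the start of a protein-coding gene were 13.7%, 14.0% and 14.1% of CEpiLC summits and 1.96%, 5.72% and 4.79% of naive summits. The difference was 9.76 percentage points (exact permutation test, p = 0.10, adjusted p = 0.15 over 3 classes). The share inside genes was 35.1%, 34.7% and 34.6% in CEpiLC and 47.8%, 42.4% and 44.6% in naive ESC. About as many summits lay between genes in both states, 51.3% ± 0.0937 (SD, n = 3) in CEpiLC and 50.9% ± 0.885 (SD, n = 3) in naive ESC.

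CEpiLC replicates shared many more of their peaks than naive replicates. The Jaccard index, the base pairs that 2 lists share over those in either, was 0.375, 0.368 and 0.412 between CEpiLC libraries. It was 0.0809 between naive replicates 2 and 3 and 0.00617 and 0.00564 between naive replicate 1 and the others. The mean index within CEpiLC exceeded that within naive ESC by 0.354 (exact permutation test, p = 0.10). Naive replicate 2 was closer to the CEpiLC libraries, at 0.124, 0.121 and 0.113, than to naive replicate 3. Of the sites of naive replicates 1, 2 and 3, 96.1%, 63.6% and 81.6% were found in no other library, against 23.5% to 24.4% in CEpiLC.

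**Figure D3:**
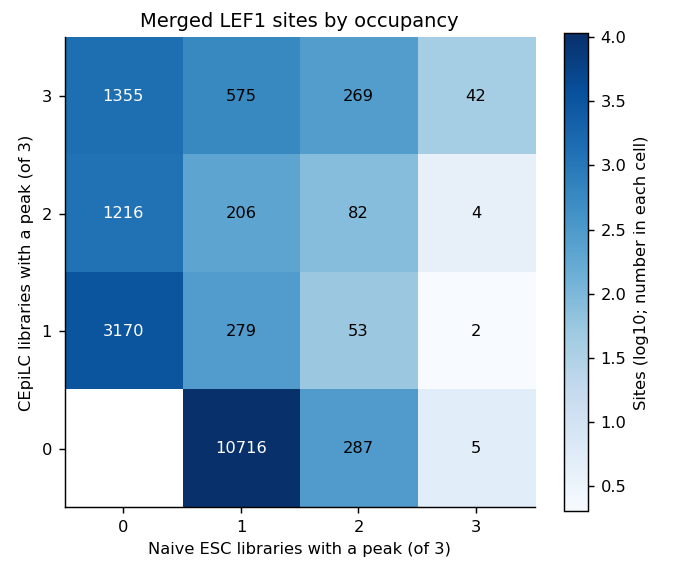
Number of merged LEF1 sites (figure in each cell, colour on a log10 scale) by the number of CEpiLC libraries (vertical) and naive ESC libraries (horizontal) that hold a peak. The cell for 3 CEpiLC and 0 naive libraries holds 1355 sites and the opposite cell 5; most naive sites were seen in 1 library.

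Sites found only in CEpiLC, in 3 of 3 CEpiLC and 0 of 3 naive libraries, numbered 1355, or 7.42% of the 18261 sites. Sites found only in naive ESC by the same rule numbered 5, or 0.0274%. The second count was held down by naive replicate 1: without it, 280 sites had a peak in naive replicates 2 and 3 and in no CEpiLC library, or 1.53%, and the CEpiLC-only count was 1377. With lists of unequal length, all peaks as deposited, the counts were 576 CEpiLC-only and 954 naive-only sites. A further 497 sites were held by 3 CEpiLC libraries and naive replicate 2 alone, and 311 sites, called shared here, by 3 CEpiLC and at least 2 naive libraries.

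CEpiLC-only did not mean empty in naive ESC. Full naive lists held a peak at 135, 606 and 809 of the 1355 sites in replicates 1, 2 and 3, at median ranks of 88512, 20728 and 204252, and 328 sites were absent from all 3 full lists. The full list of naive replicate 3 alone covered 3.83% of the main chromosomes, and how many overlaps position alone gives was not tested. In CEpiLC the same sites had median ranks of 1635, 1467 and 1465. In the other direction, 0, 38 and 55 of the 280 naive sites were in the full lists of CEpiLC replicates 1, 2 and 3, and 205 were in none. Shared sites ranked highest, with medians of 508, 572 and 539 in CEpiLC and 505 and 559 in naive replicates 2 and 3. The classes were set by presence in the shortened lists, so these ranks describe the classes and test nothing. Ranks of CEpiLC-only sites in the naive lists had to lie beyond 4443.

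The site classes differed in their sequences. TCF/LEF sequences were within 100 bp of the summit at 68.7% of the CEpiLC-only sites, 71.4% of the shared sites and 43.6% of the 280 naive sites. SOX sequences were at 25.0%, 35.0% and 57.9% of the same classes, with 27.5%, 25.7% and 26.4% in windows 5000 bp away. ESRRB sequences were at 2.21%, 5.14% and 11.8%. Both a TCF/LEF and a SOX sequence were present at 14.2% of CEpiLC-only, 26.0% of shared and 23.6% of naive sites, and at least 2 TCF/LEF sequences at 13.4%, 23.5% and 7.14%. CEpiLC-only sites were at promoters in 13.6% of cases and naive sites in 2.50%. These shares describe sites chosen from the same LEF1 lists and were not tested.

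LEF1 peaks moved together with the sites of its partners. Sites of β-catenin, TCF7L1, TCF7L2 and SOX2 were taken from the other 24 immunoprecipitations of the same WT conditions, and counted as specific where at least 2 of 3 libraries of 1 condition and none of the other had a peak. β-catenin sites specific to CEpiLC held 31.9%, 35.1% and 35.7% of the LEF1 peaks of the CEpiLC libraries and 0.495%, 1.96% and 1.62% of those of naive replicates 1, 2 and 3. β-catenin sites specific to naive ESC held 0.743%, 0.630% and 0.788% of the CEpiLC peaks and 0.428%, 33.0% and 7.25% of the naive peaks. Naive replicate 2 thus had about the share at naive-specific sites that the CEpiLC libraries had at CEpiLC-specific sites, with more at the sites of the other state, and naive replicate 1 had few peaks at either.

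The log2 ratio of LEF1 peaks at CEpiLC-specific over naive-specific sites summarised this. For β-catenin it was 5.40, 5.77 and 5.48 in CEpiLC and 0.21, -4.07 and -2.15 in naive ESC, a difference of 7.56. For SOX2 it was 4.90, 4.92 and 4.74 in CEpiLC and 1.08, -2.44 and -1.28 in naive ESC, a difference of 5.73. The differences were 3.84 for TCF7L2 and 3.21 for TCF7L1, whose naive values were 2.01, -2.20 and -1.83. CEpiLC and naive values did not overlap for any of the 4 proteins (exact permutation test, two-sided, p = 0.10 each, adjusted p = 0.10 over 4). For TCF7L1, CEpiLC replicate 1 at 2.21 and naive replicate 1 at 2.01 were close, and with peaks ranked by fold the TCF7L1 groups overlapped (difference 3.07, exact permutation test, p = 0.30).

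**Figure D4:**
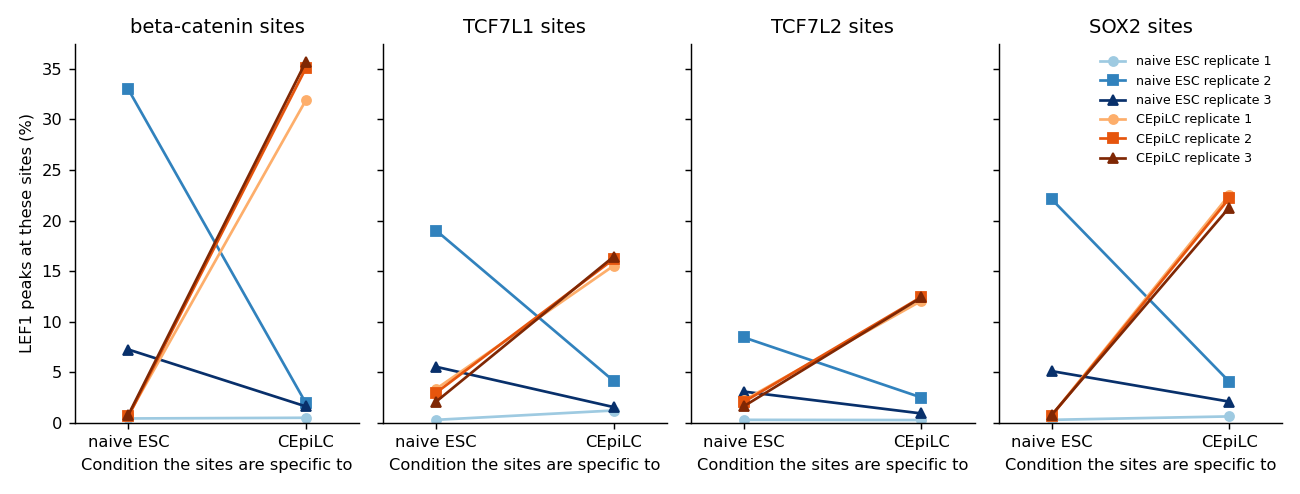
Share of the first 4443 LEF1 peaks of each library (vertical axis, percent) at sites of β-catenin, TCF7L1, TCF7L2 and SOX2 specific to naive ESC or to CEpiLC (horizontal axis); 1 line per LEF1 library. CEpiLC lines rise towards the CEpiLC-specific sites, naive replicates 2 and 3 fall, and naive replicate 1 stays near 0 to 1.22%.

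All sites of a partner in a state, specific or not, gave the same order. In CEpiLC, β-catenin sites covered 92.5% of the CEpiLC-only LEF1 sites, 92.6% of the shared and 16.4% of the naive sites. In naive ESC they covered 29.1%, 85.2% and 93.6%. SOX2 sites of naive ESC covered 90.0% of the naive LEF1 sites and 15.9% of the CEpiLC-only sites, and SOX2 sites of CEpiLC covered 34.6% and 58.8%. TCF7L1 sites of naive ESC covered 61.8% of the naive LEF1 sites, against 1.07% for TCF7L1 sites of CEpiLC. Of the LEF1 sites found in naive replicate 2 alone, 59.0% were at naive β-catenin sites and 57.6% at naive SOX2 sites. Of those found in naive replicate 3 alone, 4.83% and 5.32% were, and of those in naive replicate 1 alone, 0.258% and 0.281%.

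LEF1 libraries of the SOX2-TetON line, which had no part in choosing the sites, held the classes to different degrees. It lacks its own Sox2 (Sox2-/-), carries a doxycycline-driven copy at the HPRT locus, and was used with the copy kept on (SOX2-ON) or switched off (SOX2-OFF) while the cells were differentiated as for CEpiLC, with 3 LEF1 libraries each. In the first 4443 peaks of each, the 280 naive sites were occupied at 20.4%, 29.3% and 24.3% in SOX2-ON and at 0.714%, 2.86% and 2.14% in SOX2-OFF. The CEpiLC-only sites were occupied at 9.30%, 14.7% and 11.1% in SOX2-ON and at 30.3%, 25.5% and 43.9% in SOX2-OFF. The groups did not overlap for either class (no test was run). Shared sites were occupied at 56.3%, 58.2% and 55.9% in SOX2-ON and at 61.4%, 57.2% and 69.1% in SOX2-OFF, where the ranges met.

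Among 21938 protein-coding gene loci, the gene body with 10 kb upstream, 432 or 1.97% had a LEF1 peak in 3 of 3 CEpiLC and 0 of 3 naive libraries. The reverse held for 75 loci or 0.342%, and 293 loci or 1.34% had a peak in naive replicates 2 and 3 and in no CEpiLC library. A peak in a locus is a position and not evidence that LEF1 regulates the gene. A longer locus has more room for a peak, and the lists were not matched to all genes for length. The median locus was 27.4 kb over all genes. It was 180 kb for Meis and Pbx genes, 124 kb for TCF/LEF genes, 44.3 kb for WNT feedback genes and 13.5 to 21.9 kb for the other lists. Every locus called CEpiLC-only in the lists below had a peak in at least 2 full naive lists, so the calls refer to the 4443 highest-ranked peaks. Without naive replicate 2, where the rule was looser and the count could not fall, the CEpiLC-only count was 697 loci. With all deposited peaks it was 0, against 6274 naive-only loci.

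Genes of the caudal epiblast and primitive streak were called CEpiLC-only at 5 of 20 loci and naive-only at 0. They were T, the T-box factor that marks the primitive streak, Cdx4, a caudal homeobox gene, Wnt8a, a WNT ligand of the streak, Eomes, a T-box factor of early mesendoderm, and Epha5, an ephrin receptor. The best peaks at T ranked 1944, 688 and 515 in the CEpiLC libraries, with the summit 0.38 kb upstream of the start. Eomes had ranks of 2266, 1298 and 1423, with its best peak 9.86 kb upstream of the start, near the 10 kb limit of the locus. The best Epha5 peak lay in an intron, 118 kb from the gene start. Cdx1 and Cdx2, caudal homeobox genes that pattern the trunk and tail, were occupied in both states. At Cdx1 the ranks were 39, 120 and 123 in CEpiLC and 258 and 152 in naive replicates 2 and 3. At Cdx2 the naive ranks of 119 and 325 were ahead of the CEpiLC ranks of 932, 562 and 742. In all, 11 of the 20 loci had a peak in 3 of 3 CEpiLC libraries, against 5.99% of all loci. With 1000 peaks per library the list had 1 CEpiLC-only locus, as had the Hox and presomitic mesoderm lists.

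Hox genes, which give trunk cells their position along the body axis, were called CEpiLC-only at 7 of 39 loci. These were Hoxb2, Hoxb8, Hoxb9, Hoxc4, Hoxc5, Hoxd1 and Hoxd4. The share over all loci was 1.97%, for this list and the others called by the same rule. The loci overlap, and Hoxc4 and Hoxc5 shared the same peak. Hoxd4 ranked 3970, 3923 and 3848, near the end of the lists, and had no peak with 2000 peaks per library. Hoxd3 had the same CEpiLC ranks but was not called, since naive replicates 1 and 2 had a peak there. Hoxd1 was the strongest, at ranks 36, 31 and 64 and 2.62 kb upstream of the start, with no naive peak in the shortened lists. Hoxb1, with CEpiLC ranks of 56, 44 and 98, also had a peak of rank 956 in naive replicate 2. No Hox locus had a peak in both naive replicates 2 and 3. Over all loci 3.82% had, so 0 of 39 lies near that share. Without naive replicate 2, 11 of the 39 Hox loci were CEpiLC-only, against 697 of all 21938 loci. Among genes of the Meis and Pbx cofactors of Hox proteins, Meis2 and Meis3 were called, 2 of 8 loci. Loci of this list were long, with a median of 180 kb, and the best Meis2 peak lay 87.0 kb from the gene start. Genes of the presomitic mesoderm, the tissue that forms somites, were called at 3 of 15 loci, Hes7, an oscillating repressor of the segmentation clock, Mesp1 and Meox1. Hes7 ranked 544, 460 and 303. The presomitic count was 5 without naive replicate 2 and 6 without CEpiLC replicate 2. Over all genes, leaving out 1 library at a time gave 503 to 697 CEpiLC-only loci. Tbx6 ranked 1144, 338 and 415 in CEpiLC and 3948 in naive replicate 2, so it did not meet the rule. Neural progenitor genes were called at 2 of 15 loci, Nkx6-1, a homeobox gene of ventral neural progenitors, at ranks 222, 374 and 605, and Hes5, a Notch target, at 2255, 2956 and 3435.

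WNT feedback and target genes had peaks in CEpiLC and in naive replicate 2. None of 18 was called in either direction, while 8 had a peak in 3 of 3 CEpiLC libraries, against 5.99% of all loci, and 7 had none in any library. Naive replicates 1, 2 and 3 had a peak at 5, 9 and 3 of the 18, against 2165, 2321 and 2327 of all 21938 loci. In both naive replicates 2 and 3, a peak was present at 3 of the 18, against 3.82% of all loci. Without naive replicate 2, 5 of the 18 were CEpiLC-only, against 697 of all 21938 loci. Axin2, a negative regulator of the pathway and its most widely used target gene, ranked 223, 763 and 604 in CEpiLC and 324 in naive replicate 2. Sp5, a target that encodes a zinc finger repressor, ranked 54, 150 and 344 in CEpiLC and 168 in naive replicate 2. Lef1 itself ranked 511, 924 and 1503 in CEpiLC and 318 in naive replicate 2, and Tcf7 ranked 1209, 2335 and 1075 and 1294. Naive replicate 3 had no peak of rank 4443 or better at these 4 loci. At Axin2 and Sp5 naive replicate 2 ranked inside the CEpiLC range, and at Lef1 ahead of it.

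**Figure D5:**
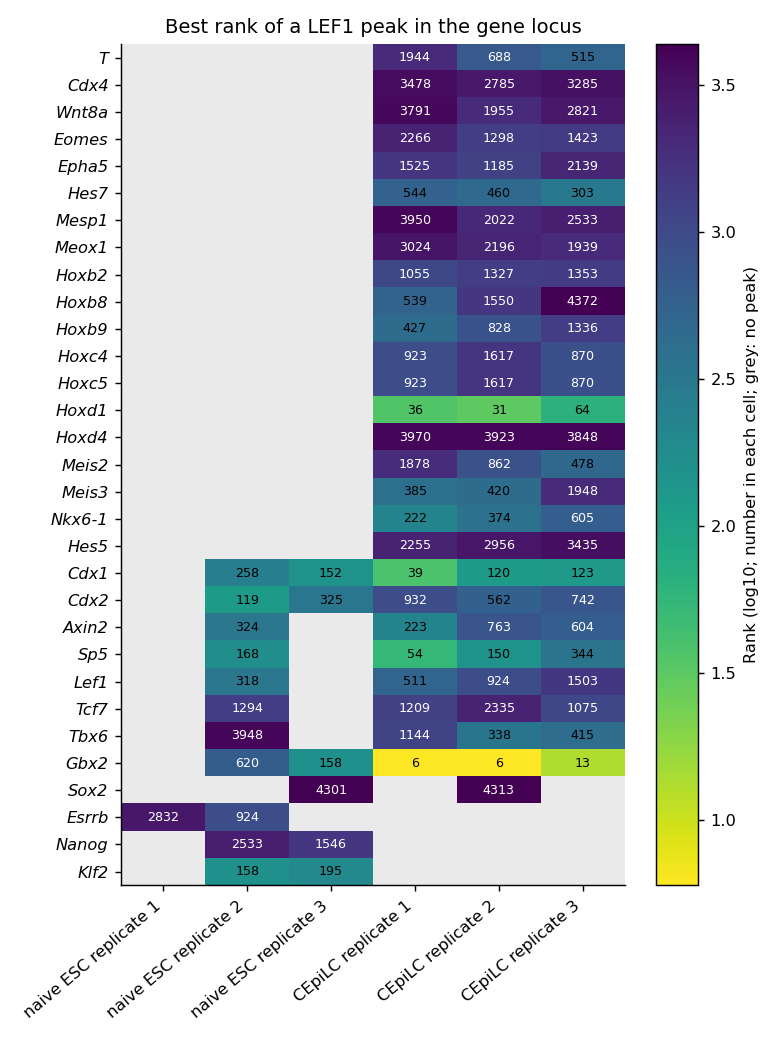
Best rank of a LEF1 peak in the locus of each gene (rows) in each library (columns), with the rank printed in the cell and coloured on a log10 scale; grey cells had no peak among the first 4443. The genes from T to Hes5 have ranks in the 3 CEpiLC libraries only, the middle genes in both states, and Nanog and Klf2 at the bottom in naive replicates 2 and 3 only.

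Pluripotency genes showed the opposite pattern at 2 of 21 loci. Klf2, a Krüppel-like factor of naive pluripotency, ranked 158 and 195 in naive replicates 2 and 3 and was in no full CEpiLC list. Nanog, a core factor of naive pluripotency, ranked 2533 and 1546 in these libraries and was in the full lists of 2 CEpiLC libraries. They were the 2 of 21 pluripotency loci with peaks in both of these naive libraries and none in CEpiLC, against 1.34% of all loci. No locus of the list was called in either direction over all 3 replicates. Prdm14, Socs3 and Lin28a, 3 of the 21, had a peak in 3 of 3 CEpiLC libraries, against 5.99% of all loci. Of these, Prdm14 and Socs3 also had a peak in naive replicates 2 and 3. Stat3 had a peak in 2 CEpiLC libraries and in 0 naive libraries. Esrrb had ranks of 2832 and 924 in naive replicates 1 and 2, and Sox2 had ranks of 4301 in naive replicate 3 and 4313 in CEpiLC replicate 2, near the end of the lists. Primed epiblast genes were called at 0 of 15 loci. Of 38 genes of other tissues found in the annotation, used as a control list, 0 were called and 0 had a peak in 3 of 3 CEpiLC libraries. Over all loci, 1.97% were called CEpiLC-only and 5.99% had such peaks, so 0 of 38 lies near these shares. These counts describe the lists beside the background and were not tested.

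The windows at 4 of these genes show the sequences at issue, with capitals as above. They were chosen after the ranks were seen.
T, chr17:8433983-8434103: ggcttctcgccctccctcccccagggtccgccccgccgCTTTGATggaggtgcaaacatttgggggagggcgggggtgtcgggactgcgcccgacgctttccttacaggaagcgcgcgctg
Hoxd1, chr2:74760296-74760416: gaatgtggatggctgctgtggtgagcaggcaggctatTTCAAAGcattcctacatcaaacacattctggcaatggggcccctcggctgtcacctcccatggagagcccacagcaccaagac
Hes7, chr11:69117999-69118119: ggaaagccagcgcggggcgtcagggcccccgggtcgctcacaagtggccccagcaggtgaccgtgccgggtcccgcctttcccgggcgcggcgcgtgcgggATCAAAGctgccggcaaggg
Klf2, chr8:72316208-72316328: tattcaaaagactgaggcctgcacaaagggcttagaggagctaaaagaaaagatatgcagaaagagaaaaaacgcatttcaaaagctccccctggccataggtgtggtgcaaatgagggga

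The T, Hoxd1 and Hes7 windows each held 1 TCF/LEF sequence. Not every CEpiLC-only locus of the lists had one. The best peaks at Cdx4, Wnt8a, Epha5, Hoxd4, Meis3 and Hes5 had no TCF/LEF sequence within 100 bp of the summit. Those at the other called loci of the lists had at least 1. The window at Klf2, where the peak was found only in naive libraries, had no TCF/LEF sequence and 1 SOX sequence within 100 bp, and its summit lay in letters marked as a repeat.

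Peaks over the exons of Tfap2a, Tfap2c, Tcf7l1 and Tcf7l2 were present in several lists. In naive replicate 1, peaks over the exons of Tfap2a and Tcf7l1 reached ranks of 5 and 16, and in CEpiLC replicate 1 peaks over the exons of Tfap2c and Tcf7l1 reached ranks of 4 and 29. At these 2 libraries the best folds were 38.9 at Tfap2a and 55.6 at Tfap2c. In the other libraries the best rank over any of these exons was 144, at Tfap2a in naive replicate 3. Without them all 4 counts of CEpiLC-only and naive-only sites and loci stayed within 1.5 times.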

How the data were processed

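LEF1 ChIP-seq of 6 libraries of the WT line was analysed, with 24 libraries of β-catenin, TCF7L1, TCF7L2 and SOX2 and 6 LEF1 libraries of the SOX2-TetON line for comparison. The cells had been fixed with DSG and then PFA. Reads were single-end, 76 bp. The authors aligned them with BWA to mm10 in the nf-core ChIP-seq pipeline and called narrow peaks with MACS2 in each library, with replicates not pooled and a q-value threshold of 0.05. How read filtering treated reads with several positions is not given in the sources used here. The deposited lists give positions, a score (10 times the −log10 q), a fold ratio over background, and −log10 p and q values. No deposited column gives reads, so depth is unknown and differences in list length could not be corrected by it.

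Lists were ranked by −log10 p and shortened to the 4443 peaks of the shortest. Sites were unions of peaks sharing at least 1 bp. Sequences were searched on both strands in 200-bp windows of the GRCm38 reference (the mm10 build), with windows 5000 bp away as background. The words were CTTTGAA and CTTTGAT (TCF/LEF), CTTTGT and CATTGT (SOX), ATTTGCAT and ATGCTAAT (OCT), TTTATGG and TTTATTG (CDX), AGGTGTG (T-box), AAGGTCA (ESRRB), GGGNGTGG (KLF), GCCNNNGGC (AP-2) and CCACNAGG (CTCF). TCF/LEF and SOX words share the letters CTTTG, but no word belongs to both. Gene models were GENCODE basic models of mouse, and letters came from the RefSeq genome. Promoters lay within 1000 bp of a protein-coding start. Partner sites needed a peak in 2 of 3 libraries, after lists were shortened to the shortest of each protein and at most 20000 peaks; 0.5 was added to each count in the log2 ratios. Groups of 3 were compared by a two-sided exact permutation test over 20 assignments, whose smallest p is 0.10, so that no single comparison could pass 0.05; p-values were adjusted within a family by the Benjamini-Hochberg method. Named sites were those with the lowest mean rank (over the CEpiLC libraries, or naive replicates 2 and 3 for naive sites) in 3 classes, 6 CEpiLC-only, 4 naive and 4 shared. Gene lists and site classes were chosen with earlier results of these data known. Scripts used python 3.11.15, numpy 2.4.6, pandas 2.3.3 and scipy 1.17.1, and were tested on simulated data. Alternatives covered list length, ranking, thresholds, windows, overlap, locus size and leaving out each library.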

Additional observations from a re-analysis of the deposited data

How the results depend on the processing

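The TCF/LEF, promoter and partner differences kept their direction under every alternative tried. Of 308 values of the main comparisons, 273 kept their sign or, for counts, stayed within 1.5 times. A further 27 counts moved more, and 8 differences changed sign. Of 588 values of single lists and genes, 249 moved and none changed sign. Counts for a list cannot be negative, so for them no change of sign was possible. Since no p could pass 0.05, keeping the sign says little of size: the SOX difference reached -12.4 and the share between genes 5.43 with 1000 peaks per library. The CTCF share turned to -0.633 with 1000 peaks per library, -0.0667 with 2000 and -0.0938 without naive replicate 3. The SOX share turned to 0.126 with all deposited peaks and 1.02 without naive replicate 2, the share between genes to -5.73 with all deposited peaks and -0.225 with peaks ranked by fold, and the CDX share to 0.589 without CEpiLC replicate 3.

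Counts changed with list length and, with all deposited peaks, with lengths that also became unequal. CEpiLC-only sites numbered 336 with 1000 peaks per library, 700 with 2000 and 576 with all peaks, and 895 where a peak had to cover at least 0.5 of the site and 328 with absence judged in the full lists. Naive-only sites numbered 1 with 1000 peaks, 954 with all, 2 ranked by fold, 3 in fixed windows, 0 where a peak had to cover at least 0.5 of the site and 3 with absence judged in the full lists. CEpiLC-only loci numbered 139 with 1000 peaks, 257 with 2000, 0 with all and 835 with 50 kb on both sides. Naive-only loci numbered 7, 21 and 6274 with 1000, 2000 and all peaks, 42 with a −log10 q of at least 5, 1 within 5 kb of the start and 221 with 50 kb on both sides. The cause of the other shifts was not tested.

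Leaving out each library in turn gave 1377 to 1853 CEpiLC-only sites, 5 to 280 naive-only sites, 503 to 697 CEpiLC-only loci and 80 to 293 naive-only loci. The rule then asked for only 2 libraries in the condition of the library left out. This loosened it, so the counts of loci could not fall. Naive-only sites numbered 280 without naive replicate 1 and 15 without naive replicate 3, and naive-only loci numbered 293, 247 and 200 without naive replicates 1, 2 and 3. The TCF/LEF difference ranged from 30.3 to 47.2 percentage points, the SOX difference from -10.4 to 1.02, the CDX difference from -1.02 to 0.589 and the CTCF difference from -0.0938 to 0.548.

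Whether replicate numbers pair the libraries could not be decided. Deviations of same-numbered libraries correlated at -0.00701, 0.00333 and 0.00195 over 18261 sites, and those of differently numbered libraries at -0.0182 to 0.0151. Most sites did not vary within 1 of the conditions, such as the 10716 with a peak in 1 naive and 0 CEpiLC libraries. Such sites hold the correlation near 0 with or without pairing. With a replicate block the TCF/LEF difference was 38.0 percentage points (exact sign-flip permutation test, p = 0.25, the smallest that 3 pairs allow). With equal numbers the block leaves each difference as it was by arithmetic, so only the p-values could change. Agreement and counts have no value per library and were not fitted with it. Read depth, not given in the lists, limits what absence of a peak means.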
